A study of Mus musculus with 6 samples.

Results

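The 9 genes described here encode parts of the phosphoinositide 3-kinase (PI3K) and AKT pathway: the catalytic subunits Pik3cd and Pik3cg, the regulatory subunits Pik3r1 and Pik3r5, the PI3K inhibitor Pik3ip1, the lipid phosphatases Inpp5d and Inpp4b, and the kinases Akt1 and Akt2. They were taken by symbol from the 55487 gene identifiers of the deposited tables, each symbol matched 1 identifier, and all 9 passed the filter on low counts that left 12486 genes. They were measured by RNA sequencing of polyadenylated RNA from naive CD4+ T cells of untreated wild-type C57BL6/J mice, 3 libraries from spleen and 3 from the mesenteric lymph nodes (mLN). The labels give neither the age of the mice nor how naive cells were sorted, and they do not say whether replicates came from separate animals or from pools, so a p-value here speaks only to the spread among the 6 libraries and that spread could be technical.

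In a T cell, PI3K is recruited by antigen, costimulatory, cytokine and chemokine receptors and phosphorylates a membrane lipid to make the second messenger PIP3. Class I PI3K pairs a catalytic with a regulatory subunit: p110-delta (Pik3cd), the main leukocyte isoform, binds p85-type subunits such as the product of Pik3r1, whereas p110-gamma (Pik3cg) binds p101 (Pik3r5) and answers G-protein-coupled receptors. PIP3 brings AKT kinases to the membrane, where they are activated, and AKT then phosphorylates FOXO factors and keeps them out of the nucleus. Naive T cells depend on nuclear FOXO1 for homing and survival genes.

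Expected counts summed to between 13205499 and 20054205 per library, so that a floor of 3 counts is between 0.150 and 0.227 CPM (counts scaled by library size and TMM factors), for counting error only. The summed level of 9 markers of naive CD4 T cells was 6165 to 6373 CPM in spleen and 6155 to 6288 CPM in mLN. Summed markers of several other cell types differed between the tissues, while those of regulatory and activated T cells and of erythroid cells overlapped. B cell markers summed to 509 to 544 CPM in spleen and 346 to 373 CPM in mLN, where 8 of 9 tested fell. Monocyte and macrophage markers summed to 43.6 to 48.6 and 12.4 to 12.6 CPM (4 of 6 tested fell, of 10 listed). Beside both counts, 13.5% of all genes tested fell. Whether the monocyte and macrophage markers that fell passed the filter on low counts only through spleen was not examined. Neutrophil markers summed to 31.5 to 37.7 and 0.150 to 1.24 CPM. The 5 neutrophil markers tested, of 8 listed, passed the filter on low counts through spleen. That all 5 fell could hardly have come out otherwise and adds nothing to the sums. Dendritic cell markers summed to 4.79 to 9.68 and 0.750 to 1.10 CPM, and erythroid markers to at most 0.675 CPM. Markers of CD8 and NK cells summed to 61.9 to 69.3 and 70.1 to 91.0 CPM. Of these 8 markers 6 were tested, and 1 rose and 0 fell, where 16.1% of all genes tested rose. Their median log2 fold change, mLN minus spleen, was -0.37, so that the sum and the median go opposite ways. Those of regulatory and activated T cells summed to 17.0 to 19.8 and 13.4 to 20.3 CPM. Stromal and endothelial markers summed to 236 to 247 and 203 to 218 CPM. Of these 6 only Pecam1 passed the filter on low counts, so that the sum rests on Pecam1. Fcgr1 was at 0 counts in all mLN libraries, and Elane in all 6 libraries. Several of the 9 genes, Inpp5d, Pik3cd, Pik3cg and Pik3r5 among them, are also expressed by B cells and myeloid cells. The part of such cells in the results below was not tested, and fewer cells of a type cannot be told apart from less RNA per cell.

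Sequence upstream of a transcription start is shown for 3 of the genes that rose: Inpp5d, the gene with the largest rise, Pik3r5, the one shown with the most GC boxes, and Akt1, which holds a FOXO motif (the first of its 2 listed starts). Each line gives 250 bases ending just before the start, 5′ to 3′ on the strand of the gene, from RefSeq on GRCm38.p6. They lie at chr1:87620062-87620311 (plus strand), chr11:68431875-68432124 (plus strand) and chr12:112674885-112675134 (minus strand). Capitals mark matches, on either strand, to the GC box GGGCGG or to the FOXO motif GTAAACA.
Inpp5d: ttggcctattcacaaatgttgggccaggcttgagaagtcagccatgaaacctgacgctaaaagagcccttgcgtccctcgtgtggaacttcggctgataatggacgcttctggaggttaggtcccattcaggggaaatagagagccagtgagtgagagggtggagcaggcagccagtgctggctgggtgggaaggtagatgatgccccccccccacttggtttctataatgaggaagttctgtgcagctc
Pik3r5: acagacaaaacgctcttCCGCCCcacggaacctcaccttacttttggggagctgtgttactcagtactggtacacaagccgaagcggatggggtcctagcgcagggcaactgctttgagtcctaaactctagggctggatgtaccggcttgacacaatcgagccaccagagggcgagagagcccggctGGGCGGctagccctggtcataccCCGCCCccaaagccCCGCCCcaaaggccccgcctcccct
Akt1: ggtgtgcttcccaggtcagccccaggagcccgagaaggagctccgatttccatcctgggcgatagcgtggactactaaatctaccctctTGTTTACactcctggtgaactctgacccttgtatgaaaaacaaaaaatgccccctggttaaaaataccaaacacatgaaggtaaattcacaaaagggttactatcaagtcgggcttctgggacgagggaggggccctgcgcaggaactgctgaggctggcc
Pik3r5 has 4 GC boxes in this stretch, Akt1 has 1 FOXO match starting 161 bases before its start, and Inpp5d has no match to either. Windows of 250 bases before and 50 after each start were searched on both strands for 6 motifs, the other four being ETS (CCGGAAG), RUNX (TGTGGTT), E-box (CACGTG) and AP-1 (TGANTCA). The 9 genes have 17 such windows. The GC box was found in windows of 6 of the 9 genes (7 of 17 windows, against 35.7% of all 32851 windows), and the FOXO motif in 2 of the 9, Akt1 and Pik3cg (2 of 17 windows, against 3.65% of all). ETS, RUNX, E-box and AP-1 letters were in 0 of the 17 windows, against 8.86%, 5.27%, 7.15% and 7.81% of all windows. Windows of 1 gene can overlap, and a match is a match of letters.

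The comparison of mLN with spleen asks whether naive CD4+ T cells of the 2 organs differ in these transcripts. Of the 9 genes, 6 rose in mLN (Inpp5d, Pik3cd, Akt1, Pik3r5, Akt2 and Pik3r1), 2 fell (Pik3ip1 and Inpp4b), and Pik3cg did not pass the test. The test was edgeR's quasi-likelihood test with Benjamini-Hochberg adjustment over all 12486 genes and a threshold of 0.05. With any 1 library left out 4 to 6 of the 9 rose and 1 to 2 fell, the calls lost being those of Pik3r1, Inpp4b and Akt2 given below. Of all genes tested, 16.1% rose and 13.5% fell by the same rule. The fold changes ran from 1.53-fold for Inpp5d to 0.768 of the spleen level for Pik3ip1, and the median log2 fold change was 0.23, against -0.01 over all genes tested. The CPM values of the 2 tissues did not overlap for 6 of the 9 genes, which was so for 41.8% of all genes tested.

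**Figure D1:**
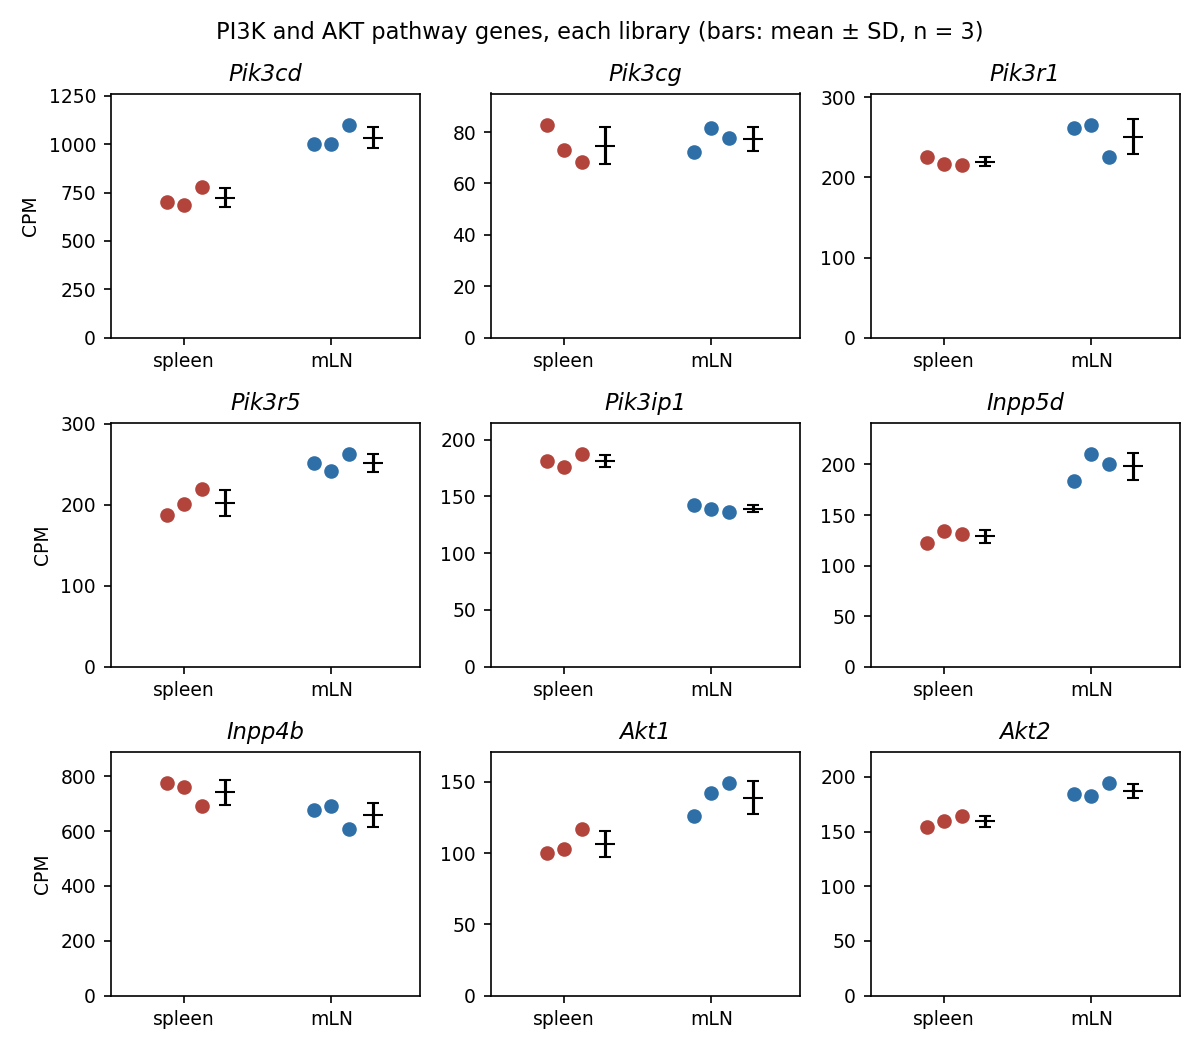
CPM of the 9 genes in each library, 3 from spleen (red) and 3 from mLN (blue), with the mean and SD in black; each axis starts at 0. The tissues are separate for Pik3cd, Pik3r5, Pik3ip1, Inpp5d, Akt1 and Akt2, and overlap for Pik3cg, Pik3r1 and Inpp4b.

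Among the catalytic subunits, Pik3cd (ENSMUSG00000039936, chr4:149649168-149702571, minus strand, mm10) stood at 701, 688 and 781 CPM in spleen replicates 1, 2 and 3 and at 1003, 1001 and 1097 CPM in mLN replicates 1, 2 and 3. Every mLN library was above every spleen library. Means were 723 ± 50.2 and 1034 ± 55.2 CPM (SD, n = 3 each). This is 1.43-fold, or 0.52 on the log2 scale (standard error, SE, 0.0605; edgeR adjusted p = 1.74e-06). Its call was kept in all 18 alternative settings tried, with log2 fold changes between 0.40 and 0.75.

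Pik3cg (ENSMUSG00000020573, chr12:32173473-32208659, minus strand), the G-protein-coupled form, stood at 82.6, 73.1 and 68.4 CPM in spleen and 72.2, 81.7 and 77.7 CPM in mLN. The tissues overlapped. The log2 fold change was 0.047 (SE 0.0900; edgeR adjusted p = 0.742), and it turned to -0.12 with the trend on transcript length removed (adjusted p = 0.364) and to -0.024 without spleen replicate 3 (adjusted p = 0.887).

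Within each library the ratio of Pik3cd to Pik3cg does not depend on how libraries are scaled to each other. On the deposited TPM (a level per transcript length, scaled to a common library total) the log2 ratio was 3.38, 3.49 and 3.83 in the spleen libraries and 3.92, 3.83 and 4.06 in the mLN libraries. Pik3cd was 11.8 times as abundant as Pik3cg in spleen and 15.3 times in mLN. The groups did not overlap before rounding, with 3.83 as the nearest value in each, and the difference of 0.37 had a two-sided exact permutation p of 0.1, the smallest that 3 libraries against 3 allow (0.24 adjusted over the 6 ratios and shares computed).

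Of the summed TPM of the 4 class I catalytic genes, Pik3cd made up 79.7 ± 3.88% (spleen) and 83.2 ± 2.03% (mLN; SD, n = 3 each). The tissues overlapped, and the exact permutation p was 0.2 (0.24 adjusted). The difference of 3.49 percentage points was 1.58 without spleen replicate 1 and 5.45 without spleen replicate 3. Pik3ca, the ubiquitous p110-alpha, made up 12.2 ± 3.02% and 10.4 ± 2.05%, Pik3cg 6.75 ± 0.755% and 5.43 ± 0.401%, and Pik3cb, the p110-beta isoform, 1.35 ± 0.158% and 0.984 ± 0.167%. The shares of Pik3cg and Pik3cb did not overlap between the tissues and were not tested. In counts, neither Pik3ca (104 CPM in both tissues, adjusted p = 0.972) nor Pik3cb (15.7 and 16.7 CPM, adjusted p = 0.715) passed edgeR's test, although Pik3ca was higher in mLN by 0.20 on the log2 scale with the GC trend removed (adjusted p = 0.0177).

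Of the regulatory subunits, Pik3r5 (ENSMUSG00000020901, chr11:68432121-68497849, plus strand), the p101 partner of p110-gamma, stood at 187, 201 and 219 CPM in spleen and 251, 241 and 262 CPM in mLN. The tissues did not overlap. Its log2 fold change was 0.31 (SE 0.0683; edgeR adjusted p = 0.00136). The value was 0.17 with the trend on GC content removed (adjusted p = 0.00952). The ratio of Pik3r5 to Pik3cg in TPM was 3.67 in spleen and 4.28 in mLN, a log2 difference of 0.22 whose libraries overlapped (exact permutation p = 0.2, 0.24 adjusted). It was 0.10 without spleen replicate 1 and 0.33 without spleen replicate 3.

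Pik3r1 (ENSMUSG00000041417, chr13:101680563-101768217, minus strand), which encodes p85-alpha and shorter forms, was at 226, 217 and 216 CPM in spleen and 262, 265 and 226 CPM in mLN. Replicate 3 of mLN lay at the level of spleen replicate 1, and the other mLN libraries lay above all spleen libraries. The log2 fold change was 0.19 (SE 0.0681; edgeR adjusted p = 0.0396). The call was lost without any 1 of spleen replicates 1, 2 and 3 and mLN replicates 1 and 2 (adjusted p = 0.0660, 0.173, 0.1, 0.170 and 0.190), and held without mLN replicate 3. It was also lost with the length trend removed, where the log2 fold change was 0.075 (adjusted p = 0.458), with upper-quartile factors (0.121), and on log2 TPM as deposited or centred (0.0601 and 0.732), while the GC trend removed gave 0.32 (adjusted p = 6.04e-06). The log2 ratio of Pik3r1 to Pik3cd in TPM was -1.48, -1.44 and -1.97 in spleen and -1.92, -2.12 and -2.16 in mLN. It was lower in mLN by 0.44 on average, with spleen replicate 3 inside the mLN range (exact permutation p = 0.2, 0.24 adjusted).

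Pik3ip1 (ENSMUSG00000034614, chr11:3330401-3342971, plus strand), a membrane protein that binds and restrains class I catalytic subunits, was the gene with the largest fall. It stood at 181, 176 and 187 CPM in spleen and 142, 139 and 136 CPM in mLN. All mLN libraries lay below all spleen libraries. The means were 181 ± 5.20 and 139 ± 2.73 CPM (SD, n = 3 each), and the log2 fold change was -0.38 (SE 0.0667; edgeR adjusted p = 1.61e-04). On log2 TPM, where the median of all tested genes was shifted to 0.21, it was -0.20 (adjusted p = 0.107), and with the values centred on each library's median it was -0.45 (adjusted p = 0.0115). A transcript on the opposite strand, Gm12592, overlaps the gene and had at most 83 counts in any library, against at least 1855 for Pik3ip1.

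Of the lipid phosphatases, Inpp5d (ENSMUSG00000026288, chr1:87620312-87720507, plus strand) encodes SHIP1, which removes the 5-phosphate of PIP3. Its counts were 122, 134 and 131 CPM in spleen and 184, 210 and 200 CPM in mLN. Every mLN library lay above every spleen library. The log2 fold change was 0.62 (SE 0.0719; edgeR adjusted p = 1.61e-06), and each library left out in turn kept it between 0.57 and 0.66. The libraries in which Inpp5d rose are those in which the B cell and myeloid markers above were lower and Pik3ip1 and Inpp4b fell. The part of such cells in any of these changes was not tested.

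The TPM of Inpp5d was 48.1, 81.0 and 69.9 in spleen and 117, 102 and 91.5 in mLN, also without overlap but with a wider spread. The effective length that the TPM is divided by also varied, at 3043, 1966 and 2240 nt in spleen and 2262, 2932 and 3094 nt in mLN. Spleen replicate 1 had the longest value in spleen and the lowest TPM. On median-centred log2 TPM the difference was 0.41 and the call was lost (adjusted p = 0.172).

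Inpp4b (ENSMUSG00000037940, chr8:81342556-82127914, plus strand), which removes the 4-phosphate of the product of SHIP1, stood at 774, 761 and 690 CPM in spleen and 676, 690 and 607 CPM in mLN. Spleen replicate 3 and mLN replicate 2 were at the same level, so that the tissues overlapped. Its log2 fold change was -0.17 (SE 0.0621; edgeR adjusted p = 0.0387), but it turned to 0.12 on log2 TPM (adjusted p = 0.448), was -0.13 with the TPM values centred (adjusted p = 0.420), was -0.0046 with the GC trend removed (adjusted p = 0.949) and was -0.27 with the length trend removed (adjusted p = 0.00159). Leaving out spleen replicate 1 or 2, or mLN replicate 1 or 3, ended the call (adjusted p = 0.157, 0.131, 0.0624 and 0.106).

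The 2 phosphatases were also set against each other within each library. The log2 ratio of Inpp4b to Inpp5d in TPM was 2.08, 1.66 and 1.64 in the spleen libraries and 1.05, 1.39 and 1.29 in the mLN libraries. Every mLN library had the lower ratio, 2.37 against 3.46 on average (exact permutation p = 0.1, the smallest possible, 0.24 adjusted). In expected counts the difference of the log2 ratio was -0.79 in place of -0.55.

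Both AKT genes rose. Akt1 (ENSMUSG00000001729, chr12:112653821-112674884, minus strand), the broadly expressed form, stood at 100, 103 and 117 CPM in spleen and 126, 142 and 149 CPM in mLN. The tissues did not overlap. The log2 fold change was 0.38 (SE 0.0832; edgeR adjusted p = 0.00143), 0.19 with the GC trend removed (adjusted p = 0.0234) and 0.29 with log2 TPM centred, which ended the call (adjusted p = 0.132).

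Akt2 (ENSMUSG00000004056, chr7:27591552-27640826, plus strand), best known for insulin signalling, stood at 154, 160 and 164 CPM in spleen and 184, 182 and 194 CPM in mLN, again without overlap. Its log2 fold change was 0.23 (SE 0.0663; edgeR adjusted p = 0.0108). On log2 TPM, with its overall shift, it was 0.46, and with the values centred it was 0.21 and the call was lost (adjusted p = 0.121). The call was also lost without spleen replicate 1 or 2 (adjusted p = 0.0635 and 0.0558). The ratio of Akt1 to Akt2 in TPM was 0.806 in spleen and 0.853 in mLN, a log2 difference of 0.081 whose libraries overlapped (exact permutation p = 0.3, both before and after adjustment). That difference was 0.15 in expected counts, 0.13 without spleen replicate 3 and 0.14 without mLN replicate 1, and 0.035, 0.048 and 0.053 without spleen replicate 1, mLN replicate 2 and mLN replicate 3.

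**Figure D2:**
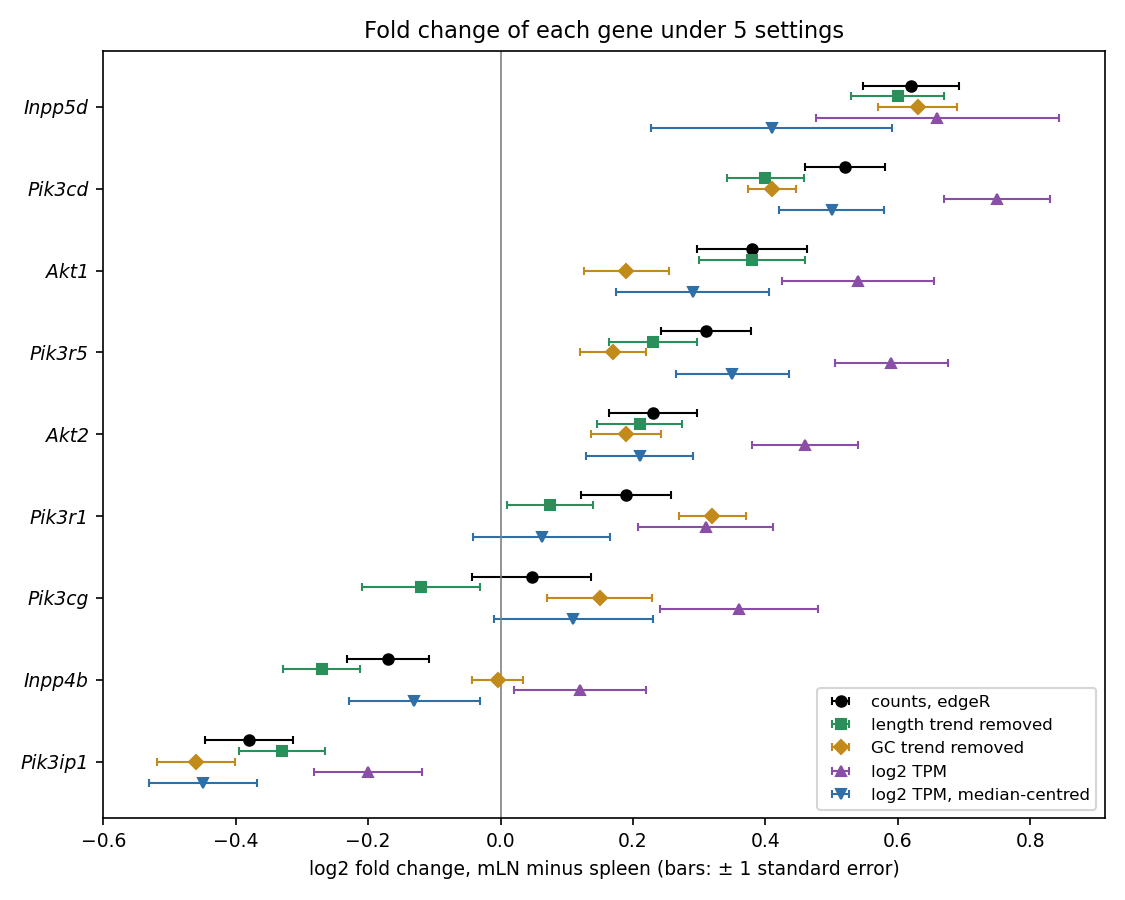
Log2 fold change, mLN minus spleen, of each gene with its standard error, from edgeR on counts, with the trend on transcript length or GC content removed, and from limma on log2 TPM, as deposited or centred on the median of each library. Inpp5d, Pik3cd, Akt1, Pik3r5 and Akt2 lie right of 0 and Pik3ip1 left of 0 under all 5, while Inpp4b and Pik3cg change sides.

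The setting of the scale moved the count of calls. On log2 TPM, where 22.1% of all genes rose and 3.08% fell, 5 of the 9 genes rose and 0 fell. With the TPM values centred, 6.39% of all genes rose and 7.58% fell, and of the 9 only Pik3cd and Pik3r5 rose (adjusted p = 0.00716 and 0.0330) and Pik3ip1 fell. Fold changes ran with transcript length, with a Spearman's rho of 0.37 over the 12486 genes (genes are no independent replicates). With that trend removed 5 of the 9 rose and 2 fell, against 14.4% and 9.19% of all genes, and with the GC trend removed 6 rose and 1 fell, against 21.2% and 11.8%. With upper-quartile factors 5 rose and 2 fell, against 13.6% and 16.4%. A pseudocount of 0.1 in place of 1 on log2 TPM gave the same counts for the 9, against 22.1% and 3.12% of all genes. The replicate number as a block gave 6 and 2, against 20.6% and 17.1%.

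Per transcript length, Inpp4b and Pik3cd stood highest of the 9 genes in both tissues. In spleen Inpp4b at 225 ± 26.9 TPM and Pik3cd at 208 ± 19.9 TPM led and overlapped, with Inpp4b the higher in replicates 1 and 2 and Pik3cd in replicate 3, followed by Pik3ip1 at 127 ± 6.61 TPM. In mLN Pik3cd at 348 ± 16.4 TPM stood above Inpp4b at 244 ± 21.4 TPM with no overlap, followed by Pik3ip1 at 110 ± 8.23 TPM (SD, n = 3 each). The middle of the order was close-set. In spleen Akt2, Pik3r1, Inpp5d, Pik3r5 and Akt1 had means from 73.1 down to 59.2 TPM, each overlapping the next. In mLN Inpp5d, Akt2 and Pik3r5 had means from 103 down to 97.3 TPM, Inpp5d overlapping Akt2 and Akt2 overlapping Pik3r5, and Inpp5d overlapped Pik3ip1 above it. Akt1 at 86.1 TPM lay below Pik3r5 with no overlap and overlapped Pik3r1 at 83.2 TPM. Pik3cg was lowest in both, at 17.5 ± 1.59 and 22.7 ± 1.12 TPM, apart from all others. Levels in TPM are not compared here between tissues, because of the shift given above.

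**Figure D3:**
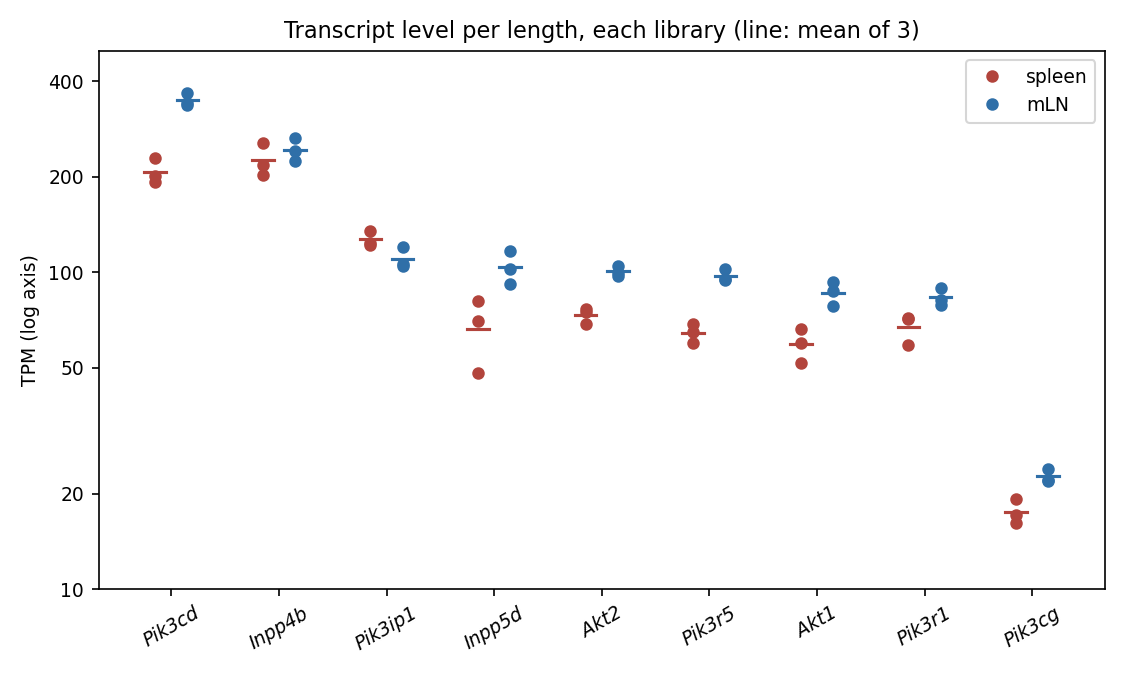
Deposited TPM (log axis) of the 9 genes in each spleen (red) and mLN (blue) library, with lines at the mean of 3, ordered by the mLN mean. Pik3cd and Inpp4b lie at 192 TPM or above, 6 genes lie between 48.1 and 135 TPM, and Pik3cg lies between 16.2 and 24.0 TPM.

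The deposited transcript length of a gene is averaged over its isoforms by their estimated abundance, so that it shifts when isoform use shifts. It differed between the tissues beyond overlap for 1 of the 9 genes, Pik3cg, which measured 5350 ± 50 nt for spleen against 5119 ± 162 nt for mLN (SD, n = 3 each). The exact permutation p of that difference was 0.1, the smallest possible, and 0.45 adjusted over the 9 genes. The share of all genes whose lengths did not overlap was not computed, so the 1 of 9 has nothing to be set against. Pik3r1, whose annotated transcripts reach from 472 to 7113 nt, was at 4050, 3893 and 4643 nt in spleen and 4489, 5082 and 4168 nt in mLN (adjusted exact permutation p = 0.45). The widest spread within a tissue was that of Inpp5d, with an SD of 561 nt in spleen, followed by Inpp4b with 538 nt. The estimate rests on how reads were divided among overlapping isoforms.

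Genes with the most similar pattern over the 6 libraries were sought among 7958 named genes with a mean of at least 10 CPM, by Pearson's r of log2 CPM. They were Mllt6 for Pik3cd (r = 0.9994), Tbc1d22a for Pik3cg (0.9474), Erbin for Pik3r1 (0.9959), Lpcat4 for Pik3r5 (0.9978), Srp14 for Pik3ip1 (0.9983), Cap1 for Inpp5d (0.9996), Yme1l1 for Inpp4b (0.9955), Tmem184b for Akt1 (0.9996) and Sfn for Akt2 (0.9993). None of the 9 was the nearest to another of the 9. These values describe 6 libraries that fall into 2 tissues, and the best of so many candidates over 6 points is close to 1 in most cases. Cap1 follows Inpp5d in shape and not in size, with a log2 fold change of 0.19.

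The wider pathway was described with 8 lists of 92 other genes, of which 85 were tested, 27 rose and 14 fell, where 16.1% of all genes rose and 13.5% fell. With the length trend removed 20 rose and 18 fell, against 14.4% and 9.19% of all genes. On log2 TPM 35 rose and 5 fell, against 22.1% and 3.08%, and with the values centred 14 and 10, against 6.39% and 7.58%. The median log2 fold change of the listed genes was 0.15. Of the other PI3K subunits and adaptors 3 of 9 tested rose and 0 fell: Pik3c2b, a class II enzyme, at 1.75-fold, Pik3r4, the regulatory partner of the class III enzyme, at 1.22-fold, and Pik3r3, a p55 regulatory subunit, at 1.83-fold from a level of 3.88 CPM. All 3 calls were lost with the length trend removed (adjusted p = 0.0529, 0.141 and 0.0732) and with log2 TPM centred (0.138, 0.442 and 0.140). That of Pik3r4 was also lost on log2 TPM (0.0703), with upper-quartile factors (0.0586) and with any 1 library left out (0.0551 to 0.0824), and that of Pik3r3 without spleen replicate 2 or 3 or mLN replicate 1 or 2 (0.0707, 0.122, 0.0527 and 0.0962).

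Beside the counts that follow, 16.1% of all genes tested rose and 13.5% fell. With the length trend removed these shares were 14.4% and 9.19%, on log2 TPM 22.1% and 3.08%, and centred 6.39% and 7.58%. Among other phosphoinositide phosphatases 4 of 10 rose and 1 fell (2 rose with the length trend removed, and 0 fell on log2 TPM or centred). Inpp4a, the paralog of Inpp4b, rose 1.40-fold and Synj1 1.36-fold (edgeR adjusted p = 1.27e-04 and 5.74e-04). Kinases that supply the lipid substrate rose in 5 of 10 cases (3 without spleen replicate 2, 2 with log2 TPM centred) and fell in 0, with Pip4k2b at 1.42-fold, Pip5k1c at 1.39-fold and Pi4ka at 1.26-fold (lost on log2 TPM, adjusted p = 0.0671, and centred, 0.441). Around AKT itself 2 of 8 rose and 0 fell (0 rose with log2 TPM centred). Mtor, the catalytic subunit of the complex that completes AKT activation, was 1.43-fold higher (lost on log2 TPM, 0.111, and centred, 0.569). Mlst8, a subunit of that complex, was 1.17-fold higher without passing the test (0.183). In the same list Rictor (log2 fold change -0.009, edgeR adjusted p = 0.942) and Mapkap1 (0.055, 0.745) did not pass the test either. Pdpk1, the kinase that phosphorylates AKT first, was 1.13-fold higher with an edgeR adjusted p of 0.0480. The Pdpk1 difference turned to -0.052 with the length trend removed, and leaving out spleen replicate 2 or 3 or any mLN replicate ended the call (0.0976 to 0.218), as did RLE factors (0.0533), upper-quartile factors (0.155), either other filter (0.0858 and 0.0576) and centring of log2 TPM (0.223).

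Downstream, 6 of 12 tested AKT substrates rose and 2 fell (1 fell with any 1 of 5 libraries left out, and 0 without mLN replicate 2, on log2 TPM or centred), with Foxo1 at 1.36-fold, the glycogen synthase kinase gene Gsk3b at 1.47-fold and Tbc1d1, a regulator of glucose transporter traffic, at 1.40-fold. Of 14 PIP3-binding and downstream effectors 4 rose and 2 fell, where 16.1% of all genes tested rose and 13.5% fell. On log2 TPM 8 of these effectors rose and 1 fell, against 22.1% and 3.08% of all genes. With the GC trend removed 7 rose and 2 fell, against 21.2% and 11.8%, and with the length trend removed 4 rose and 4 fell, against 14.4% and 9.19%. Prex1, a Rac exchange factor driven by PIP3, rose 1.76-fold and Plcg1 1.42-fold, while the kinase gene Tec fell to 0.565 of its spleen level. Of 14 upstream receptors and adaptors 2 rose (1 without spleen replicate 2 or mLN replicate 2) and 6 fell, whereas on log2 TPM 4 rose and 2 fell. Gab2 is among the 6, at a log2 fold change of -7.39. Whether it passed the filter on low counts only through spleen was not examined. Il7r fell to 0.568 and the adaptor Trat1 to 0.701 of their spleen levels, and Cbl, a ubiquitin ligase, rose 1.31-fold (adjusted p = 0.200 with the length trend removed).

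Of 12 genes known as FOXO targets 6 fell and 1 rose, where 13.5% of all genes tested fell and 16.1% rose. The number that rose was 2 without spleen replicate 3. It was also 2 with the GC trend removed and with the replicate number as a block, where 21.2% and 20.6% of all genes rose. The median log2 fold change of the 12 was -0.26. Besides Il7r, which also stands in the list of receptors and adaptors, the sestrin gene Sesn1 fell to 0.535 of its spleen level (edgeR adjusted p = 4.30e-08). Another sestrin gene, Sesn3, was the 1 that rose (log2 fold change 0.41, edgeR adjusted p = 2.21e-05). Ccr7 and Cdkn1b, which fell too, also stand in a second list, so that the lists share some falls. On log2 TPM the counts were 3 lower and 3 higher, against 3.08% and 22.1% of all genes. With the values centred they were 5 lower and 0 higher, against 7.58% and 6.39%.

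**Figure D4:**
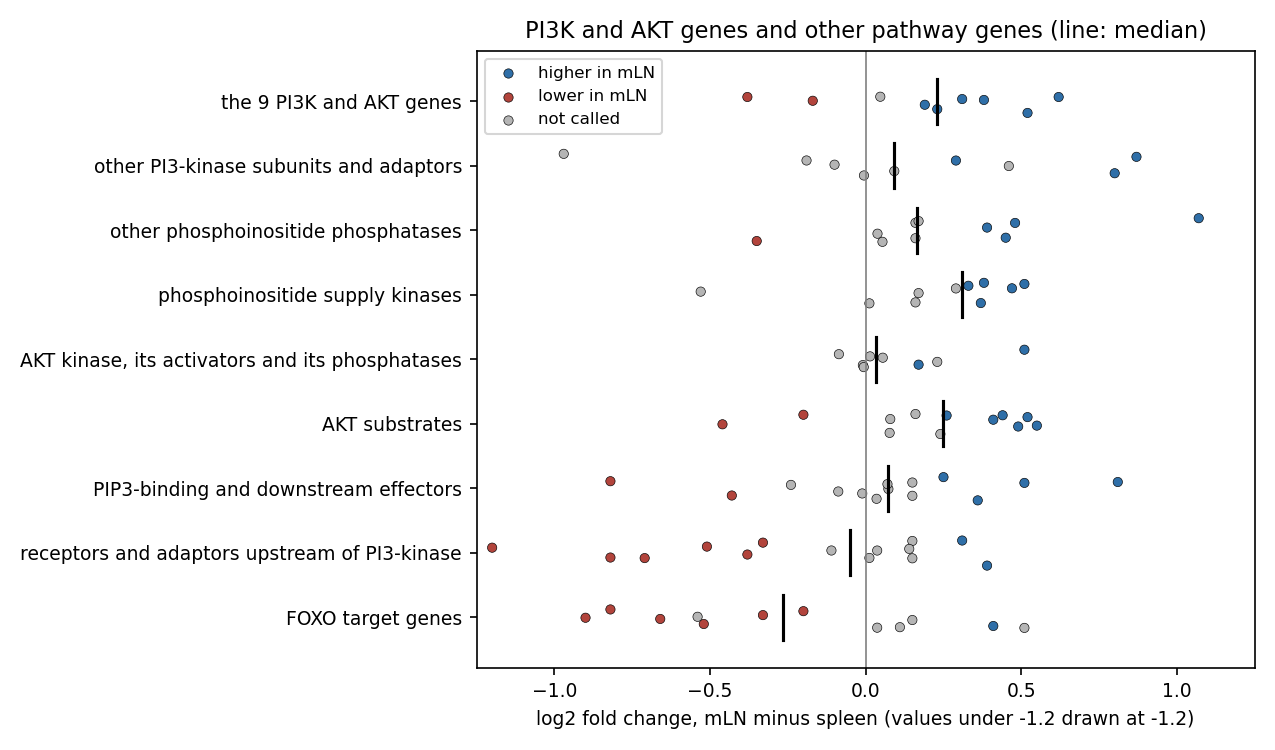
Log2 fold change, mLN minus spleen, of each tested gene in the set of 9 and in 8 lists of other pathway genes, coloured by whether it passed edgeR's test; vertical lines are medians, and the value of Gab2, -7.39, is drawn at -1.2. The median lies at 0.23 for the 9 genes and at -0.26 for the FOXO targets.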

How the data were processed

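RNA was extracted with RNAiso Plus, cleaned on a column and made into libraries with a directional kit (NEBNext Ultra II), per the labels' protocols. The submitters' processing notes name STAR, RSEM and mm10. Neither the releases of these tools, nor the annotation, nor how strand was set, is given in the sources used here. Expected counts, which RSEM estimates by dividing reads among isoforms, were deposited for each gene. The deposited TPM are levels per effective length scaled to a fixed library total, and the deposited FPKM are fragments per length and depth, per the file headers. The deposited length and effective length are in nucleotides, per the file headers.

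Of 55487 identifiers, 55141 were given a symbol. Coordinates and GC content came from GENCODE vM21 (GRCm38, the assembly of mm10), upstream sequences from RefSeq on GRCm38.p6. Expected counts were rounded, filtered with filterByExpr and scaled by TMM, and tested with edgeR's two-sided quasi-likelihood test, tissue as the only term, threshold 0.05 after Benjamini-Hochberg adjustment over 12486 genes. Log2 fold changes are given as mLN minus spleen. Each SE was obtained as the absolute log2 fold change divided by the root of the F statistic. Within-library ratios and transcript lengths were tested by two-sided exact permutation over libraries. The script was tested on simulated counts. The 9 genes, the lists and the rule for naming genes were chosen with earlier results of these data known. That rule took all 9, up to 3 of each list by smallest p, 2 further catalytic genes, and the nearest pattern of each of the 9. Gab2, Pecam1, Rictor, Mapkap1, Sesn3, Ccr7, Cdkn1b and the cell markers named at 0 were named after their values were seen. Some genes that the rule names are not reported here. Alternatives were DESeq2, limma-voom, RLE or upper-quartile factors in edgeR, limma on log2 TPM plus 1 (also centred, and plus 0.1), no filter or a stricter one (5 CPM in 3 libraries), loess removal of the trend on length or GC content (span 0.3), the replicate number as a block, and each library left out. Replicates of a tissue differed beyond sampling noise (chi-square per degree of freedom 5.60 to 12.1). Software was Python 3.11.15 (pandas 2.3.3, numpy 2.4.6, scipy 1.17.1, matplotlib 3.10.9) and R 4.3.3 with DESeq2 1.42.0, limma 3.58.1 and edgeR 4.0.16.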

Additional observations from a re-analysis of the deposited data

How the results depend on the processing

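Pik3cd and Pik3r5 kept their direction and call in all 18 alternatives. Inpp5d and Akt1 lost the call only on median-centred log2 TPM, and Pik3ip1 only on log2 TPM plus 1 or plus 0.1; these kept their direction. Of the 9 genes 0 were lower on log2 TPM plus 1 and plus 0.1, against 2 on counts, and 2 were higher and 1 lower with the values centred; with the GC trend removed 1 was lower. With a library left out 4 to 6 were higher and 1 to 2 lower. Of the listed pathway genes 5 were lower on log2 TPM plus 1 and 6 on plus 0.1, and 14 were higher with the values centred. Of all genes 384, 389 and 947 were lower on log2 TPM plus 1, plus 0.1 and centred, and 798 were higher on the last. With upper-quartile factors the 9 gave 5 higher and 2 lower. The cause of these changes was not tested.

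Directions that turned were Inpp4b (0.12 on log2 TPM plus 1 and on plus 0.1), Pik3cg (-0.12 with the length trend removed; -0.024, without spleen replicate 3, to 0.12 with a library left out), Pdpk1 (-0.052 with the length trend removed), Pik3cb (-0.10 with the length trend removed, -0.068 centred, -0.0018, without mLN replicate 2, to 0.15 with a library left out) and Pik3ca (0.45 and 0.47 on log2 TPM plus 1 and plus 0.1, 0.21 centred, 0.20 with the GC trend removed, 0.0032, 0.017 and 0.056 without spleen replicate 1, spleen replicate 2 and mLN replicate 3, and as low as -0.066 without spleen replicate 3).

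With the replicate number as a block, 6 of the 9 genes were higher and 2 lower, and 2566 and 2139 of all genes. Deviations of same-numbered libraries correlated at 0.0223, 0.00230 and 0.0652, and those of differently numbered libraries at -0.0456 to 0.0238. These values cannot decide whether the numbers pair the libraries, which the labels do not say. The SE of each of the 9 genes was smaller with the block, as for Pik3cd (0.0346 against 0.0605). Within-library ratios kept their direction in expected counts and with a library left out, though not always their size. Effective length and FPKM follow length and TPM by construction and test nothing further. At these depths the lowest count of any of the 9 genes in a library was 1089 (Pik3cg, mLN replicate 2), and the number of libraries limits the precision.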
